A study of Mus musculus with 4 samples.

Results

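Non-dividing natural killer (NK) cells were picked out of single-cell RNA profiles of leukocytes from B16-F10 mouse melanoma tumours, and they numbered 1249 of the 35411 cells that passed the quality limits. B16-F10 is a transplantable melanoma line of C57BL/6 origin. A cell was counted as a non-dividing NK cell when it had at least 300 genes, at most 10% mitochondrial transcripts, at least 3 unique molecular identifiers (UMIs, single captured transcripts) over the receptor genes Ncr1, Klrb1c and Klre1 with at least 1 of Ncr1, and no UMI of Cd3d, Cd3e, Cd8a, Cd8b1, Csf1r, Mki67 or Top2a. The members were thus chosen by measured UMIs of those 10 genes, and the levels of these genes are no finding here. Tumours were taken on day 14, and antibodies had been given on days 8 and 11. The CD40+PD1 group received an antibody to CD40 into the tumour and an antibody to PD1 intravenously. The CD40 group received the CD40 antibody, the PD1 group received the PD1 antibody, and the Control group is described as treated with IgG. Dilution buffer and IgG stood in for the antibodies, but which single-antibody group was given which of them is stated only for the series as a whole. Single-cell suspensions of 6 mice per group were pooled, cells were incubated with antibodies against CD16 and CD32, and live CD45+ cells were sorted. The labels call the cell type melanoma, which is the tumour and not the sorted population. Each group is 1 library, so no difference between groups has a replicate check and no test across groups was possible. Intervals below are 95% intervals that cover counting error only. The exception is an interval beside the median log2 ratio of a gene list. It gives the medians of the lower and of the upper 95% bounds of the list's genes, and it is not a 95% interval of the median.

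NK cells are innate lymphocytes that kill infected or transformed cells with perforin and granzymes and that secrete interferon gamma and chemokines such as CCL3, CCL4, CCL5 and XCL1. Mouse NK cells mature from a CD27+ stage, which keeps the transcription factor TCF1 (Tcf7), to a CD11b+ stage that carries KLRG1, CX3CR1 and S1PR5. In tumours, NK cells have to be told apart from type 1 innate lymphoid cells (ILC1), which share Ncr1 and Klrb1c but make little or no Eomes and carry CD49a (Itga1) and Cxcr6.

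The members were 252 of 9720 kept cells in the CD40+PD1 library, 188 of 7906 in the CD40 library, 457 of 9938 in the PD1 library and 352 of 7847 in the Control library. That is 2.59% (Clopper-Pearson interval 2.29 to 2.93) in CD40+PD1, 2.38% (2.05 to 2.74) in CD40, 4.60% (4.20 to 5.03) in PD1 and 4.49% (4.04 to 4.97) in Control. Both libraries with the CD40 antibody had the smaller shares. The clause that removes cells with Mki67 or Top2a bears on this directly. Counted with the dividing NK cells, the share was 4.22% in CD40+PD1, 4.15% in CD40, 5.40% in PD1 and 5.10% in Control. Non-dividing cells were 61.5% of all NK cells in CD40+PD1, 57.3% in CD40, 85.1% in PD1 and 88.0% in Control. Deeper cells show a division UMI more readily, and after every cell was thinned to 3000 UMIs the same shares were 77.3% in CD40+PD1, 76.3% in CD40, 94.0% in PD1 and 94.3% in Control.

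Depth per member was greater in both libraries with the CD40 antibody. The median was 10608 UMIs in CD40+PD1, 9554.5 in CD40, 6074 in PD1 and 5530 in Control, and the members held 2774559 UMIs in CD40+PD1, 1798807 in CD40, 3024461 in PD1 and 2226016 in Control. Levels are therefore given as CPM, the UMIs of a gene summed over the members of a library and scaled to 1000000 UMIs of those members, and shares of cells are given after thinning. Ribosomal transcripts were 18.3% to 22.2% and mitochondrial transcripts 1.36% to 1.57% of member UMIs. Between 94 and 144 barcodes were shared by any pair of libraries, and no barcode was a member in 2 libraries. A doublet score of at least 0.25 was found in 6 members of CD40+PD1, 1 of CD40, 4 of PD1 and 2 of Control.

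At the edge of the rule, 9 cells of CD40+PD1, 5 of CD40, 2 of PD1 and 7 of Control met every clause except the receptor minimum, while members with 3 or 4 receptor UMIs numbered 6 in CD40+PD1, 2 in CD40, 9 in PD1 and 9 in Control. The median member had 21 receptor UMIs in CD40+PD1, 24 in CD40, 15 in PD1 and 14 in Control. Eomes, the T-box factor that separates NK cells from ILC1 and the only given marker outside the rule, averaged 169 CPM in CD40+PD1, 193 in CD40, 253 in PD1 and 297 in Control. After thinning, members with an Eomes UMI were 36.0% in CD40+PD1, 38.9% in CD40, 48.3% in PD1 and 55.1% in Control, against at most 0.112% of phagocytes. Phagocytes were chosen without UMIs of Ncr1, Klrb1c, Klre1, Cd3 or Cd8 genes, which can lower their shares for NK genes here and below. Unthinned, they were 66.3% in CD40+PD1, 62.2% in CD40, 69.1% in PD1 and 70.2% in Control. Eomes was thus present in every library and lower in both libraries with the CD40 antibody, at a log2 ratio of -0.62 for CD40 over Control and -0.58 for CD40+PD1 over PD1. The CD8 T cells used here were chosen without UMIs of Ncr1, Klrb1c and Klre1, which can raise the ratios of related NK receptor genes. Against the CD8 T cells of the same library, the genes outside the rule that stood out most were Klra4, Klra8 and Klra9 of the Ly49 receptor family, with log2 ratios of at least 9.13, 8.79 and 6.41 in each library. Klrb1a and Klrb1b, which sit in the same receptor cluster as Klrb1c, followed with at least 6.05 and 5.84, together with the signalling adaptor Clnk at 5.93 and the cytokine gene Tnfsf12 at 5.39. Receptors of the Ly49 and Klrb1 families are close in sequence, and how reads matching several of them were counted was not examined.

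Transcripts of other cell types were unequal and mostly low. The sums of 4 gamma-delta T cell markers and of 5 type 2 innate lymphoid cell markers stood above those of all other kept cells. The first summed to 103 CPM in CD40+PD1, 100 in CD40, 161 in PD1 and 134 in Control, against 9.43 to 15.1 CPM. They were in 137, 96, 257 and 181 members in that order. The second summed to 60.6, 52.8, 54.2 and 62.0 CPM in the same order, against 15.5 to 22.7 CPM. Not every gene of these lists was present. Tcrg-C2 had UMIs only in CD40+PD1, and Tcrg-C1 had none in Control. Il13 and Il5 had none in any library, and Areg had UMIs only in PD1. Summed over 6 phagocyte markers, the members had 294 CPM in CD40+PD1, 94.5 in CD40, 162 in PD1 and 128 in Control, while all other kept cells had between 7495 and 11477 CPM. The 5 neutrophil markers summed to 666 CPM in CD40+PD1, 59.5 in CD40, 2.65 in PD1 and 2.70 in Control, carried by 38 members in CD40+PD1, 12 in CD40, 7 in PD1 and 5 in Control. The 6 T cell markers summed to 106 CPM in CD40+PD1, 94.5 in CD40, 55.5 in PD1 and 67.4 in Control. The 4 defining genes of type 3 innate lymphoid cells were all at 0 except in Control, where they summed to 0.449 CPM, and melanoma transcripts stayed at or below 4.94 CPM. ILC1 markers summed to 201 CPM in CD40+PD1, 222 in CD40, 95.6 in PD1 and 252 in Control, from 136 members in CD40+PD1, 90 in CD40, 83 in PD1 and 85 in Control. Their part in the results below was not tested, other than by leaving the cells out where that is stated.

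The comparison of the CD40 antibody asks which NK transcripts differ when the antibody was in the tumour, and it was made once without PD1 antibody (CD40 over Control) and once with it (CD40+PD1 over PD1). The pairs share no library. Non-dividing NK cells exposed to the CD40 antibody had more Klrg1, Gzmk, Gpx8, Cx3cr1 and Ly6c2 and less Tcf7, Aff3, Bach2, Pmepa1 and Cd27 in both pairs. In CD40+PD1 over PD1 without cells with ILC1 markers, Cx3cr1 had a log2 ratio of only 0.18 (-0.40 to 0.74) and Ly6c2 of 0.31 (0.14 to 0.49). In CD40 over Control 113 of 7536 genes (1.5%) were higher by a log2 ratio of at least 1 and 344 (4.56%) were lower by as much. Of 8252 genes in CD40+PD1 over PD1, 167 (2.02%) were higher and 203 (2.46%) lower. Genes counted here had at least 30 UMIs in the higher library. A fixed rule of size named 9 higher and 9 lower genes that passed the 2-fold mark in both pairs at 50 CPM or more, listed by the smaller of the pair of ratios.

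Klrg1, which encodes an inhibitory lectin-like receptor for cadherins and marks late NK maturation, lies on the minus strand of GRCm38 at chr6:122270596-122282882. It averaged 544 CPM in CD40+PD1, 553 in CD40, 102 in PD1 and 84.5 in Control. The libraries with the CD40 antibody stood far above both others and next to each other. The log2 ratio was 2.71 (2.48 to 2.94) for CD40 over Control and 2.41 (2.23 to 2.59) for CD40+PD1 over PD1. In Control 1 cell gave 34.0% of the Klrg1 UMIs, while the top cell gave at most 5.50% in the other libraries. By cells, 64.8% (58.5 to 70.7) of thinned members had a Klrg1 UMI in CD40+PD1, 63.2% (55.9 to 70.2) in CD40, 19.7% (16.1 to 23.8) in PD1 and 10.8% (7.71 to 14.7) in Control. Unthinned, the shares were 80.2% in CD40+PD1, 75.0% in CD40, 29.3% in PD1 and 16.5% in Control. Phagocytes, which lack the receptor, had a Klrg1 UMI in at most 0.312% of cells thinned to the same number of UMIs. Their choice without UMIs of the rule's receptor genes can lower this share. Unthinned, the share was at most 0.753%, at median depths of 18134.5 UMIs in CD40+PD1, 19616 in CD40, 13712 in PD1 and 14745.5 in Control.

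Gzmk, the gene of the tryptase-type granzyme K (minus strand, chr13:113171608-113225908), averaged 147 CPM in CD40+PD1, 92.3 in CD40, 17.9 in PD1 and 6.29 in Control. The log2 ratio was 3.88 (3.09 to 4.78) for CD40 over Control and 3.04 (2.63 to 3.48) for CD40+PD1 over PD1, and the combination library had the highest level. It was a gene of a minority of members, with a UMI in 21.2% of thinned cells in CD40+PD1, 9.19% in CD40, 3.02% in PD1 and 2.11% in Control (unthinned, 36.1% in CD40+PD1, 20.7% in CD40, 6.78% in PD1 and 2.84% in Control). Phagocytes had it in at most 0.448% of thinned cells. Gpx8, an endoplasmic reticulum peroxidase gene close by on the same strand (chr13:113042753-113046410), averaged 64.5 CPM in CD40+PD1, 106 in CD40, 9.26 in PD1 and 4.04 in Control. Its ratios were 4.71 (3.75 to 5.86) for CD40 over Control and 2.80 (2.22 to 3.43) for CD40+PD1 over PD1. Thinned members had a Gpx8 UMI in 14.0% of cells in CD40+PD1, 22.7% in CD40, 2.55% in PD1 and 1.20% in Control (unthinned, 28.6% in CD40+PD1, 40.4% in CD40, 4.81% in PD1 and 2.56% in Control), against at most 0.0924% of phagocytes.

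Cx3cr1, the fractalkine receptor of late NK cells, averaged 51.9 CPM in CD40+PD1, 114 in CD40, 25.5 in PD1 and 8.09 in Control. Its log2 ratio was 3.82 (3.12 to 4.60) for CD40 over Control and 1.03 (0.62 to 1.45) for CD40+PD1 over PD1, and phagocytes carry it too, in 14.1% to 20.9% of thinned cells. Ly6c2, a surface protein gene shared by monocytes and mature lymphocytes, averaged 688 CPM in CD40+PD1, 827 in CD40, 277 in PD1 and 315 in Control. S100a6, a calcium-binding protein gene, averaged 2229 CPM in CD40+PD1, 2451 in CD40, 825 in PD1 and 967 in Control. The remaining higher genes were AA467197 at 1.61 and 2.97 for CD40 over Control and CD40+PD1 over PD1, the CD49a gene Itga1 at 1.21 and 1.78, and Trerf1 at 1.18 and 1.33. Of the AA467197 UMIs of Control, 37.3% came from 1 cell. Without cells with markers of other types, the 18 named genes kept their sign in both pairs, but Itga1 and Chd3 in CD40 over Control and Ly6c2, Cx3cr1, Tcf7 and Chd3 in CD40+PD1 over PD1 were short of the 2-fold mark. Leaving out cells with a UMI of Itga1, Cxcr6, Tmem176b or Cd200r1 (ILC1 markers) kept 126 of 252 members in CD40+PD1, 110 of 188 in CD40, 386 of 457 in PD1 and 280 of 352 in Control. This filter depends on depth, and Itga1 itself differed between the libraries. Without cells with ILC1 markers, a step that leaves no Itga1 UMIs, the other 17 genes kept their sign. Trerf1 (0.74), Chd3 and Slc14a1 were then short of the mark in CD40 over Control. In CD40+PD1 over PD1, Ly6c2 at 0.31 (0.14 to 0.49), Cx3cr1 at 0.18 (-0.40 to 0.74), Lyst and Chd3 were short of it, and the interval of Cx3cr1 includes 0.

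Among the lower genes, Aff3, a nuclear elongation factor family gene (minus strand, chr1:38177326-38664955), averaged 23.8 CPM in CD40+PD1, 38.9 in CD40, 115 in PD1 and 153 in Control, with log2 ratios of -1.97 (-2.37 to -1.60) and -2.27 (-2.67 to -1.89) for CD40 over Control and CD40+PD1 over PD1. Tcf7, which encodes the TCF1 factor of immature NK cells (minus strand, chr11:52252371-52283014), averaged 58.7 CPM in CD40+PD1, 53.9 in CD40, 133 in PD1 and 177 in Control. Its ratios were -1.72 (-2.05 to -1.39) for CD40 over Control and -1.17 (-1.45 to -0.91) for CD40+PD1 over PD1. Thinned members had a Tcf7 UMI in 11.6% of cells in CD40+PD1, 14.6% in CD40, 29.5% in PD1 and 38.0% in Control (unthinned, 25.8% in CD40+PD1, 21.8% in CD40, 43.1% in PD1 and 52.8% in Control). Bach2, a transcriptional repressor that holds lymphocytes in a less differentiated state, averaged 74.6 CPM in CD40+PD1, 105 in CD40, 198 in PD1 and 239 in Control. Pmepa1, a target and inhibitor of TGF-beta signalling, averaged 45.8 CPM in CD40+PD1, 32.2 in CD40, 129 in PD1 and 110 in Control. The others were Lyst, the lysosomal trafficking gene mutated in beige mice, at -1.51 and -1.10 for CD40 over Control and CD40+PD1 over PD1, Ifi208, of the PYHIN nucleic acid sensor family, at -1.38 and -1.49, the sestrin gene Sesn1 at -1.21 and -1.31, the chromatin remodeller Chd3 at -1.06 and -1.10, and the urea transporter Slc14a1 at -1.02 and -1.20. In none of these 9 genes did a library with the CD40 antibody reach the level of a library without it. Within each pair the naming rule fixes this separation, so it is no further finding.

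**Figure D1:**
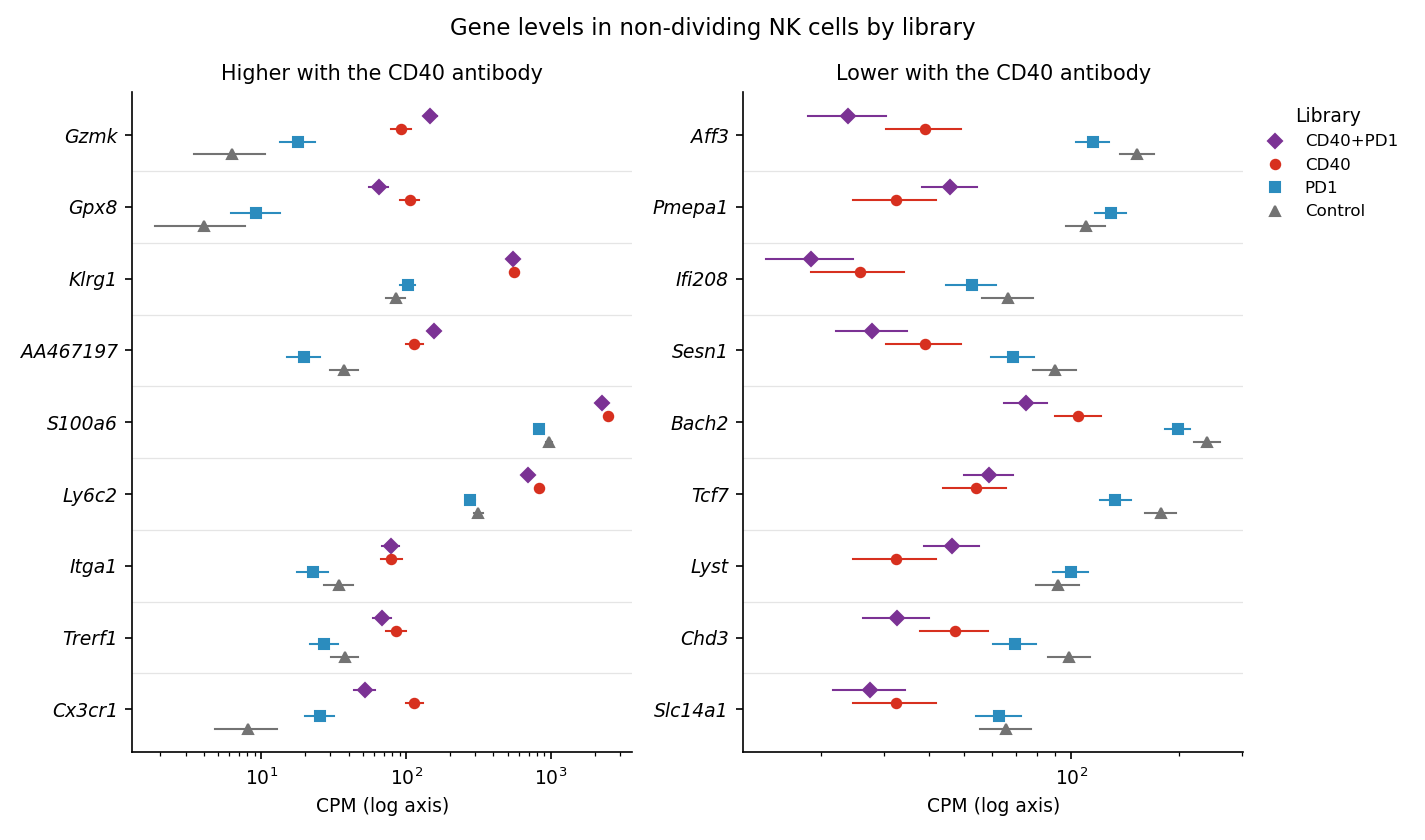
Level in CPM (log axis) of the 18 genes that passed the 2-fold mark in both CD40 antibody comparisons, 1 symbol per library, with bars for the exact Poisson 95% interval. For each gene the CD40+PD1 and CD40 symbols lie on one side of the PD1 and Control symbols, for example Klrg1 at 544 and 553 CPM against 102 and 84.5 CPM. The genes were chosen for this separation within each pair.

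The late maturation list, 14 genes of the CD11b+ stage, was higher with the CD40 antibody in both pairs. All lists were chosen with earlier results of these data known. Klrg1, Cx3cr1 and Ly6c2 of the late list were already named above for passing the mark in both pairs. In CD40 over Control 8 of its 14 genes were higher by the 2-fold mark and all 14 ratios were above 0, with a median log2 ratio of 1.26 against -0.092 for all genes compared. The 8 were Itgam, Klrg1, S1pr5, Cx3cr1, Cma1, Gzma, Ly6c2 and Ccl5. Itgam, the CD11b chain itself, averaged 144 CPM in CD40+PD1, 227 in CD40, 106 in PD1 and 80.0 in Control. S1pr5, the sphingosine phosphate receptor for egress of mature NK cells, averaged 111 CPM in CD40+PD1, 161 in CD40, 80.0 in PD1 and 67.8 in Control. With PD1 antibody in both arms (CD40+PD1 over PD1), 3 of 14 were higher by the mark (Klrg1, Cx3cr1 and Ly6c2), 12 ratios were above 0, and the median was 0.46 against -0.10 for all genes. Without cells that carried ILC1 markers that median was 0.28 (0.023 to 0.54), with Cx3cr1 and Ly6c2 short of the mark. The median in CD40 over Control was 1.06 without cells that carried ILC1 markers and 1.00 with the dividing NK cells added.

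The early maturation list was lower in part. In CD40 over Control 5 of its 14 genes were lower by the mark (Cd27, Tcf7, Emb, Bach2 and Slamf6) and none higher, with a median of -0.51. For CD40+PD1 over PD1, Tcf7, Bach2 and Slamf6 were lower by the mark, Thy1 and Il7r were higher, and the median was -0.36. That median was -0.14 (-0.28 to 0.037) without cells that carried markers of other types, and the median in CD40 over Control was -0.92 with the dividing NK cells added. Cd27, a TNF-family receptor and the defining marker of the early stage, averaged 39.6 CPM in CD40+PD1, 33.4 in CD40, 76.7 in PD1 and 87.6 in Control, with ratios of -1.39 (-1.84 to -0.97) and -0.95 (-1.29 to -0.62) for CD40 over Control and CD40+PD1 over PD1. Thy1, a surface glycoprotein gene, had ratios of 0.94 and 1.43 for the same pairs. It averaged 791 CPM in CD40+PD1, 739 in CD40, 293 in PD1 and 385 in Control. Xcl1, the chemokine that draws cross-presenting dendritic cells, averaged 324 CPM in CD40+PD1, 324 in CD40, 498 in PD1 and 551 in Control, short of the 2-fold mark in both pairs.

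**Figure D2:**
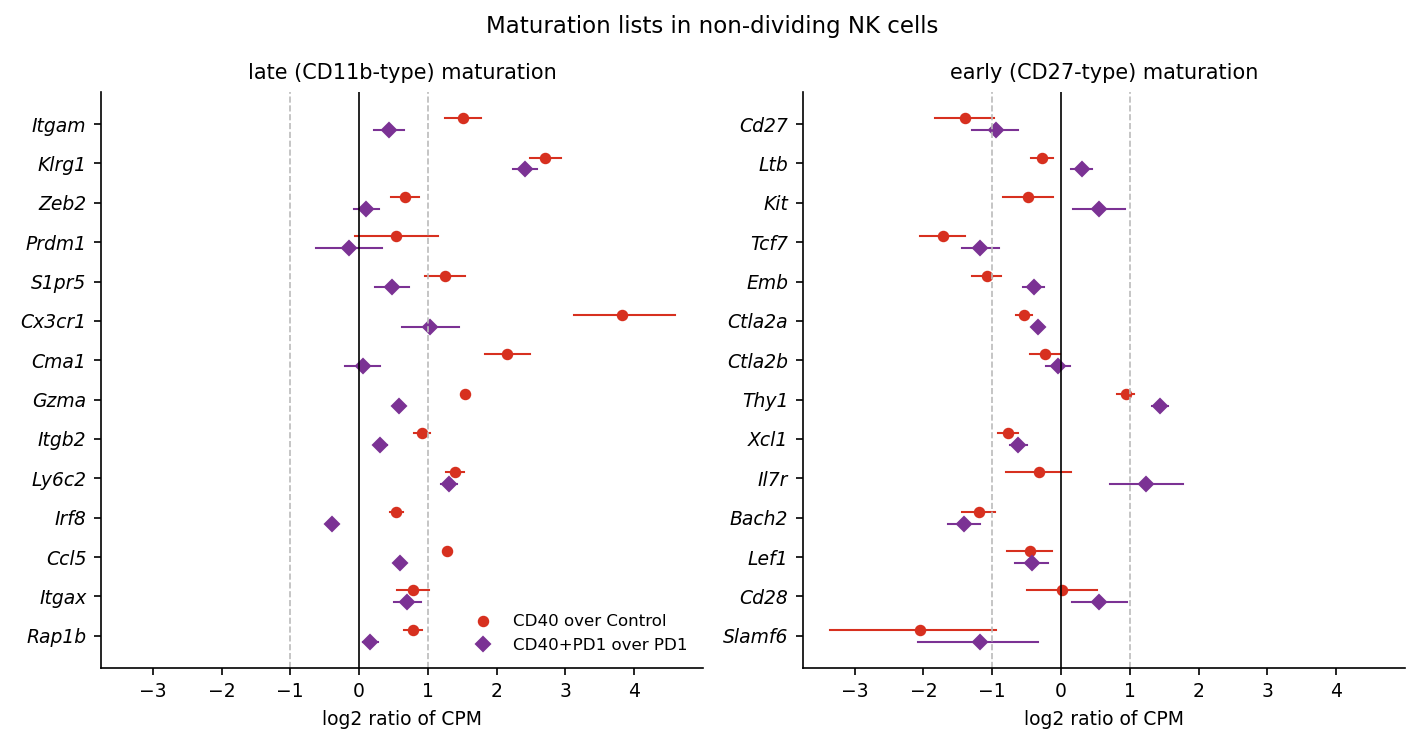
Log2 ratio of CPM with exact 95% counting intervals for the 14 late and 14 early maturation genes, for CD40 over Control and CD40+PD1 over PD1, with dashed lines at the 2-fold mark. All 14 late genes lie right of 0 in CD40 over Control, with Cx3cr1 at 3.82 and Klrg1 at 2.71, and Tcf7 and Slamf6 lie left of -1 in both comparisons.

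The maturation markers could be read in single cells only as a share of members with a UMI. After thinning, cells with a Cd27 UMI and none of Itgam were 10.4% in CD40+PD1, 5.95% in CD40, 16.5% in PD1 and 19.6% in Control. Cells with an Itgam UMI and none of Cd27 were 25.2% in CD40+PD1, 40.0% in CD40, 21.3% in PD1 and 15.7% in Control. Most members had neither (62.4% in CD40+PD1, 52.4% in CD40, 58.5% in PD1 and 60.2% in Control), and Itgam is abundant in phagocytes, of which 47.6% to 56.6% had a UMI. Within every library, Itgam was found more often in members with a Klrg1 UMI than in those without. The shares were 34.6% against 13.6% in CD40+PD1, 57.3% against 14.7% in CD40, 38.8% against 21.7% in PD1 and 33.3% against 18.6% in Control. Tcf7 was found less often in members with Klrg1, at 8.02% against 18.2% in CD40+PD1, 6.84% against 27.9% in CD40, 14.1% against 33.2% in PD1 and 22.2% against 39.9% in Control.

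**Figure D3:**
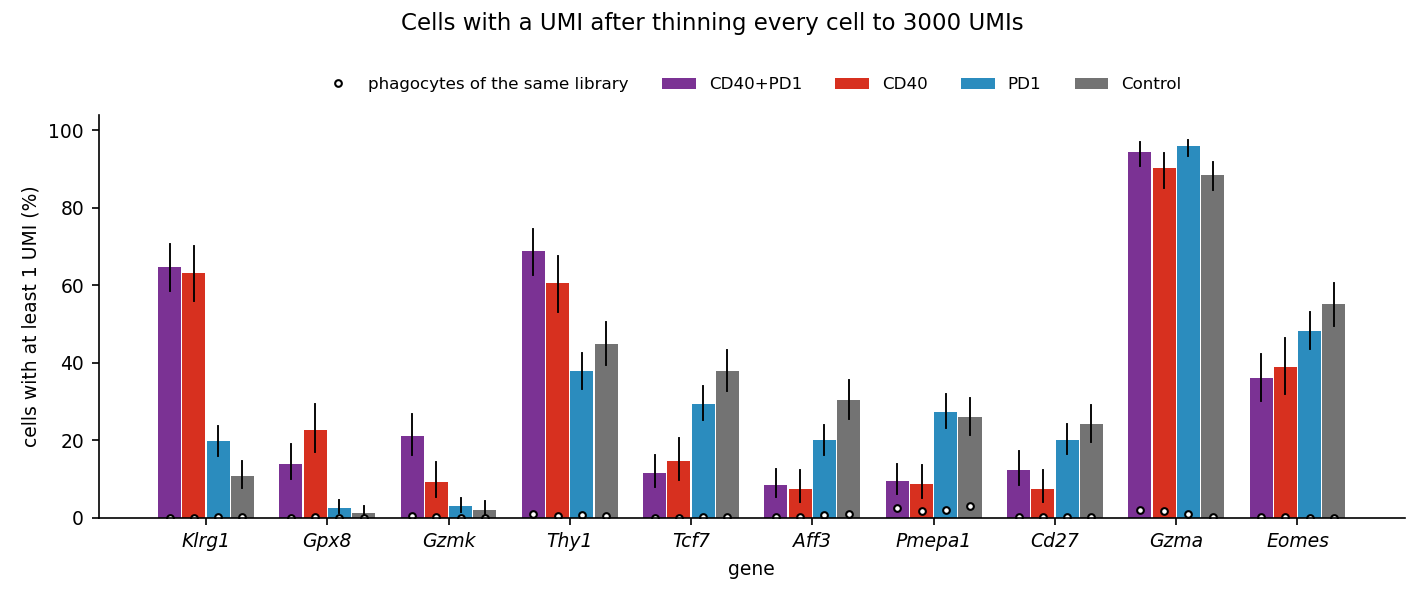
Share of non-dividing NK cells with at least 1 UMI of each gene after thinning every cell to 3000 UMIs, by library, with Clopper-Pearson 95% intervals and open circles for phagocytes of the same library. Klrg1 was found in 64.8% of cells in CD40+PD1 and 63.2% in CD40, against 19.7% in PD1 and 10.8% in Control, while Tcf7, Aff3, Pmepa1 and Cd27 have their taller bars in PD1 and Control.

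Members were then split by a Klrg1 UMI, a division chosen after the values were seen and dependent on depth. Klrg1 itself differed between the libraries and is a late list gene, so the classes hold different parts of the members in each library and their ratios are given as a description. With Klrg1 there were 202 cells in CD40+PD1, 141 in CD40, 134 in PD1 and 58 in Control, and without it there were 50 in CD40+PD1, 47 in CD40, 323 in PD1 and 294 in Control. In members with Klrg1 the log2 ratio of Gzma was 1.22 for CD40 over Control and 0.32 for CD40+PD1 over PD1, and in members without Klrg1 it was -0.40 and -0.96. In members without Klrg1, Gzma averaged 5366 CPM in CD40+PD1, 4345 in CD40, 10467 in PD1 and 5723 in Control. The ratios of Tcf7 and Cd27 for CD40 over Control were -2.30 and -1.53 in members with Klrg1, and in members without it they were -0.14 (-0.52 to 0.23) and -0.31 (-0.93 to 0.25), intervals that include 0. S100a6 had ratios of 0.94 and 1.03 with Klrg1 and 0.83 and 1.12 without it, for CD40 over Control and CD40+PD1 over PD1. Ly6a, the Sca-1 antigen gene, was singled out after its values were seen, and it averaged 602 CPM in CD40+PD1, 495 in CD40, 155 in PD1 and 167 in Control over all members. Its ratios were 2.45 (2.20 to 2.71) and 2.80 (2.59 to 3.01) without Klrg1 for CD40 over Control and CD40+PD1 over PD1, and 0.58 and 1.54 with it. The late list had a median of -0.45 for CD40 over Control and -0.53 for CD40+PD1 over PD1 in members without Klrg1. Klrg1 itself cannot enter that median. The early list medians were positive in the same members in both pairs. For members with Klrg1, CD40+PD1 over PD1 gave -0.11 for Itgam, -0.23 for S1pr5 and -0.84 for Cma1. The same comparison gave 0.43 for Ly6c2, 0.17 for Ccl5 and 0.15 for Cx3cr1.

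Killing and secretory genes were compared next. Gzma, the gene of granzyme A, averaged 18867 CPM in CD40+PD1, 19149 in CD40, 12638 in PD1 and 6593 in Control. The 3 antibody libraries stood above Control, and both libraries with the CD40 antibody stood above PD1. Prf1, the pore-forming perforin, averaged 1828 CPM in CD40+PD1, 1936 in CD40, 1214 in PD1 and 696 in Control, the same order. Gzmb differed from both, with 2845 CPM in CD40+PD1, 2615 in CD40, 3322 in PD1 and 1620 in Control. By cells, Gzma was near saturation, with a UMI in 94.4% of thinned members in CD40+PD1, 90.3% in CD40, 95.8% in PD1 and 88.6% in Control (unthinned, 96.4% in CD40+PD1, 93.6% in CD40, 95.4% in PD1 and 90.1% in Control), so its differences were in UMIs per cell. Over the list of granule and death ligand genes, 3 of 17 were higher (Gzma, Gzmk and Prf1) and 3 lower (Gzmd, Gzme and Gzmf) in CD40 over Control, with a median of 0.31. There were 5 higher genes in CD40+PD1 over PD1 (Gzmc, Gzmd, Gzme, Gzmf and Gzmk), and the median was 0.36. Single cells set the last granzymes. In Control 1 cell gave 99.2% of Gzmd, 98.0% of Gzme and 99.7% of Gzmf UMIs, and in CD40+PD1 1 cell gave 66.5%, 77.3% and 71.2%, so these near-identical paralogs describe a few cells.

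Of 12 secreted factors compared in CD40 over Control 6 were higher, with a median of 0.66 (Ifng, Csf2, Ccl1, Ccl3, Ccl4 and Ccl5). Ifng, the gene of interferon gamma, averaged 97.0 CPM in CD40+PD1, 106 in CD40, 74.4 in PD1 and 41.8 in Control, and Control was lowest. Ccl4, a chemokine gene, averaged 732 CPM in CD40+PD1, 620 in CD40, 744 in PD1 and 243 in Control, so each antibody library had more than Control and the combination had no more than PD1. Ccl1 and Csf2 came from single cells, since 1 CD40 cell gave 100% of Ccl1 and 93.0% of Csf2 UMIs of that library. By the same mark no gene of the list was higher in CD40+PD1 over PD1 and Ccl1 was lower, with a median of -0.074 over 11.

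Few receptor genes passed the mark. The NK identity list outside the rule had medians of 0.097 for CD40 over Control and -0.0097 for CD40+PD1 over PD1, with Gzma and Prf1 the 2 of 16 past the mark in the first and none in the second. Of 16 activating receptors and adaptors, Slamf7 was higher and Slamf6 lower in CD40 over Control, and Slamf6 and Ly9 were lower in CD40+PD1 over PD1. NKG2D (Klrk1), for which tumour stress ligands are known, averaged 683 CPM in CD40+PD1, 714 in CD40, 885 in PD1 and 886 in Control, with ratios of -0.31 and -0.37 for CD40 over Control and CD40+PD1 over PD1. Of 15 inhibitory receptors, Klra5, Klrg1 and Lag3 were higher and Cd200r1 lower in CD40 over Control (median 0.45), and Klra5, Klrg1, Lag3 and Ctla4 were higher in CD40+PD1 over PD1 (median 0.44). Lag3, an MHC class II receptor of activated lymphocytes, averaged 66.0 CPM in CD40+PD1, 47.3 in CD40, 20.5 in PD1 and 18.9 in Control. The targets of the antibodies were scarce in these cells. Pdcd1 averaged 7.93 CPM in CD40+PD1, 8.34 in CD40, 0.661 in PD1 and 1.35 in Control, under 30 UMIs in each library, and Cd40 averaged 3.96 CPM in CD40+PD1, 0 in CD40, 2.65 in PD1 and 12.1 in Control. The CD16 gene Fcgr3 averaged 136 CPM in CD40+PD1, 73.4 in CD40, 93.6 in PD1 and 94.8 in Control.

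Among 24 transcription regulators, Tcf7, Bach2 and Aff3 were lower and Nr4a1 higher in CD40 over Control (median -0.26), and Tcf7, Bach2, Aff3, Tox and Nr4a1 were lower in CD40+PD1 over PD1 (median -0.26). Tbx21, the T-bet gene, averaged 284 CPM in CD40+PD1, 394 in CD40, 235 in PD1 and 232 in Control. Of the TGF-beta response and residency list, Pmepa1, Ldlrad4 and Rgs2 were lower and Itga1 higher in CD40 over Control (13 compared, median -0.40), and Pmepa1 was lower and Itga1 higher in CD40+PD1 over PD1 (14 compared, median -0.47). Of the ILC1 list, in CD40 over Control Itga1 was higher and Tmem176a, Tmem176b, Cd200r1, Inpp4b and Asb2 lower (14 compared, median -0.30). For CD40+PD1 over PD1, Itga1, Cxcr6 and Il7r were higher and Asb2 lower (12 compared, median 0.012). Among homing genes, Klf2, a factor for egress genes, averaged 456 CPM in CD40+PD1, 787 in CD40, 343 in PD1 and 281 in Control, and Cxcr4 was lower in both pairs, at -2.57 and -1.26. Bcl2, a survival gene that IL-15 sustains in NK cells, averaged 204 CPM in CD40+PD1, 307 in CD40, 528 in PD1 and 496 in Control, with ratios of -0.69 and -1.37 for CD40 over Control and CD40+PD1 over PD1. MHC class I presentation had no gene past the mark in either pair (10 compared, medians 0.21 and 0.058).

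Cytokine receptors had medians of -0.11 for CD40 over Control and -0.22 for CD40+PD1 over PD1 (17 compared), with Il2ra and Il7r higher in the second pair. Il18r1, the receptor chain for interleukin 18, averaged 128 CPM in CD40+PD1, 167 in CD40, 179 in PD1 and 237 in Control. In the cytokine signalling list (16 compared, medians -0.029 and -0.41) Socs2, a feedback inhibitor of STAT5 signals, was lower by the mark in both pairs, at -2.34 and -2.13. Klra5 was the higher gene of the Ly49 family in both pairs (7 and 9 compared, medians 0.42 and 0.20), and Klra10 was lower in the second. Lag3, Entpd1 and Nr4a1 were higher of 7 exhaustion-type genes in CD40 over Control (median 0.60), while Lag3 was higher and Tox and Nr4a1 lower of 9 in CD40+PD1 over PD1 (median -0.065). Division genes outside the rule had medians of -0.15 and 0.42 (8 and 10 compared), with Tyms and Hist1h1b higher in the second pair. Ribosome biogenesis had medians of -0.26 and -0.38, with Gnl3 and Slc7a5 lower of 17 in the first pair. Immediate early and heat-shock genes of the dissociation list had medians of -0.33 and -0.20, with Egr1 higher and Fos, Fosb, Hspa1a and Hspa1b lower of 13 in CD40 over Control and Atf3 and Hspa1a lower of 12 in CD40+PD1 over PD1. Among targets and Fc receptors, Fcgr2b was lower of 4 in CD40 over Control (median -0.61) and none passed in CD40+PD1 over PD1 (median 0.11), and no melanoma transcript was abundant enough to compare.

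The glycolysis and hypoxia list had medians of 0.46 for CD40 over Control and 0.67 for CD40+PD1 over PD1. No gene of 12 passed the mark upward in CD40 over Control and Vegfa was lower, while Bnip3 and Egln3 were higher and Vegfa lower of 13 in CD40+PD1 over PD1. Without cells with further division genes the median for CD40+PD1 over PD1 was 0.44. In CD40+PD1 over Control, which differ by both antibodies, 5 of 13 passed it upward (Pgk1, Eno1, Pkm, Bnip3 and Egln3, median 0.98), where 2.52% of all 7988 genes were higher and 4.31% lower by as much. Pkm, the pyruvate kinase of growing cells, averaged 918 CPM in CD40+PD1, 599 in CD40, 529 in PD1 and 416 in Control. Gapdh averaged 1147 CPM in CD40+PD1, 760 in CD40, 585 in PD1 and 577 in Control. CD8 T cells had list medians of 0.71 and 0.57 for CD40 over Control and CD40+PD1 over PD1, and phagocytes -0.0059 and -0.028.

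The type I interferon response list was lowest in the CD40 library and highest in Control, and few cells carried much of it. Interferon-stimulated genes are switched on by STAT and IRF factors, which bind repeats of the interferon-stimulated response element. The motif GAAANNGAAA, searched on both strands in the 250 bases before the start with overlapping matches counted, was in 6 of 12 list genes with a promoter entry in the RefSeq table of GRCm38.p6 (50%), in 1 of 11 late maturation genes with an entry and in 936 of 27025 genes overall (3.46%). A match is a description of letters only. To show what the list genes share, 60 bases around the matches are given 5′ to 3′ on the strand of the gene for 4 of them, with the matched bases in capitals (TTTCNNTTTC is the match on the other strand). They lie at chr4:156200856-156200915 (minus strand) for Isg15, chr19:34640769-34640828 (plus strand) for Ifit1, chr5:120777700-120777759 (minus strand) for Oas3 and chr12:26456538-26456597 (minus strand) for Rsad2.
Isg15: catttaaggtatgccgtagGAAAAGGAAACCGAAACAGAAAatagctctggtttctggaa
Ifit1: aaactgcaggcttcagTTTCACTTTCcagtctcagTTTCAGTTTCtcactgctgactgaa
Oas3: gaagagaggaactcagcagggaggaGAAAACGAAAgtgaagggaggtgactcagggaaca
Rsad2: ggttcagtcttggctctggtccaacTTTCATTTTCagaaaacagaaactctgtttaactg

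Isg15, a ubiquitin-like modifier with 3 matches in its window, averaged 114 CPM in CD40+PD1, 49.5 in CD40, 84.6 in PD1 and 209 in Control. Ifit1, which binds foreign RNA caps and has 2 matches, averaged 14.1 CPM in CD40+PD1, 3.89 in CD40, 22.8 in PD1 and 28.3 in Control. Oas3, an RNA sensor with 1 match, averaged 6.13 CPM in CD40+PD1, 3.89 in CD40, 7.60 in PD1 and 14.4 in Control. Rsad2, the viperin gene with 1 match, averaged 13.3 CPM in CD40+PD1, 0 in CD40, 10.9 in PD1 and 16.2 in Control. In each of these genes the CD40 library was lowest, but for Ifit1, Oas3 and Rsad2 this rests on few UMIs. In CD40 over Control 12 of 14 list genes were lower by the mark and all 14 ratios were below 0, with a median of -1.98. Rsad2 was at 0 in CD40 and entered with 3 UMIs, a bound that puts its log2 ratio at -3.28 or lower. The median was 0.059 in CD40+PD1 over PD1, with Oasl2 higher and Ifit3 lower of 13 genes. Its sign turned under several settings. It was -0.53 (-0.90 to -0.16) without the members with a doublet score of at least 0.25, -0.36 with dividing NK cells added, -0.20 with a minimum of 10 UMIs or none, -0.89 without cells with markers of other types and -0.94 without cells with ILC1 markers.

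Summed over the list, the members had 544 CPM in CD40+PD1, 320 in CD40, 620 in PD1 and 1023 in Control. The median member had 3 list UMIs in CD40+PD1, 2 in CD40, 2 in PD1 and 1 in Control, and the 10 highest members gave 43.2% of the list UMIs in CD40+PD1, 24.2% in CD40, 32.4% in PD1 and 49.0% in Control. Members with 10 or more list UMIs were 23 (9.13%) in CD40+PD1, 8 (4.26%) in CD40, 28 (6.13%) in PD1 and 40 (11.4%) in Control. These cells are defined by UMIs of the list itself, at a fixed number whatever the depth, so leaving them out lowers the sum by construction, and by more where they are more. Without them the sums were 266 CPM in CD40+PD1, 268 in CD40, 352 in PD1 and 315 in Control. The high cells included all 6 members with a doublet score of at least 0.25 in CD40+PD1 and all 4 in PD1. They included 1 of 2 in Control and 0 of 1 in CD40. A dendritic cell marker was in 1 high cell of CD40+PD1, 1 of CD40, 7 of PD1 and 9 of Control. In that order, 8, 1, 4 and 4 high cells had at least 2 Lyz2 UMIs, and 8, 3, 1 and 7 had a Trac or Cd3g UMI. Without cells that carried markers of other types, the sums were 356 CPM in CD40+PD1, 299 in CD40, 652 in PD1 and 981 in Control. The list median was then -1.83 for CD40 over Control and -0.89 for CD40+PD1 over PD1. By cells, Isg15 was found in 14.8% of thinned members in CD40+PD1, 11.4% in CD40, 12.3% in PD1 and 13.9% in Control (unthinned, 32.1% in CD40+PD1, 30.3% in CD40, 25.2% in PD1 and 21.3% in Control), intervals that overlap, against 43.2% to 60.7% of phagocytes.

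The interferon gamma list had medians of 0.037 for CD40 over Control (16 compared, Iigp1 lower) and 0.0022 for CD40+PD1 over PD1 (none past the mark). Irf1 averaged 219 CPM in CD40+PD1, 212 in CD40, 238 in PD1 and 188 in Control, a narrow range. The motif above was in 6 of its 11 genes with a promoter entry (54.5%).

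**Figure D4:**
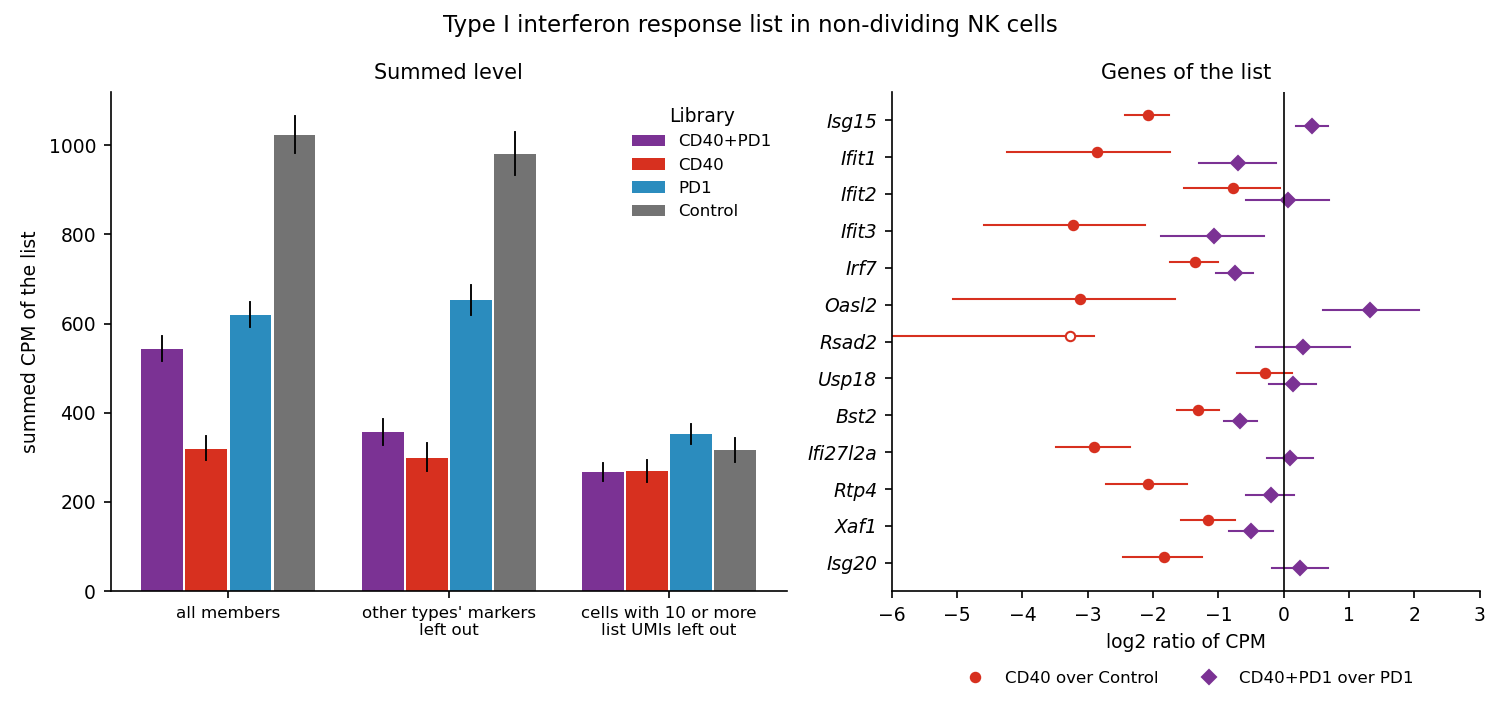
Left, summed CPM of the type I interferon list by library with exact Poisson 95% intervals, for all members, without cells that carry markers of other types and without cells with 10 or more list UMIs. Right, log2 ratios of list genes with exact 95% counting intervals, the open circle marking Rsad2 at 0 UMIs in CD40 (a bound); the sum in Control is 1023 CPM over all members and 315 CPM without the cells of 10 or more list UMIs.

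The PD1 antibody comparison was made once without CD40 antibody (PD1 over Control) and once with it (CD40+PD1 over CD40). In PD1 over Control 65 of 8105 genes (0.802%) were higher and 84 (1.04%) lower by the mark, and in CD40+PD1 over CD40 173 of 7667 (2.26%) were higher and 22 (0.287%) lower. No gene met the naming rule upward in both pairs and 1 met it downward. That gene, Ccdc184, averaged 19.8 CPM in CD40+PD1, 75.6 in CD40, 14.9 in PD1 and 50.8 in Control, from 9 members in CD40+PD1, 12 in CD40, 11 in PD1 and 16 in Control, and 1 cell gave 43.4% of the UMIs of Control.

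In PD1 over Control, Gzma had a log2 ratio of 0.94 (0.91 to 0.97), Gzmb 1.04 (0.98 to 1.09), Prf1 0.80 and Ccl4 1.62 (1.48 to 1.76). The same genes had -0.021, 0.12, -0.083 and 0.24 in CD40+PD1 over CD40. Of the secreted factors, 3 of 11 were higher in PD1 over Control (Ccl1, Ccl3 and Ccl4, median 0.39). Tnf was higher and Csf2 and Ccl1 lower of 12 in CD40+PD1 over CD40 (median -0.066). The late maturation list had a median of 0.34 in PD1 over Control, with Cx3cr1 higher, and -0.31 in CD40+PD1 over CD40, with Cx3cr1 and Cma1 lower. Cma1, a chymase gene of late NK cells, averaged 89.0 CPM in CD40+PD1, 199 in CD40, 86.0 in PD1 and 44.9 in Control. The ILC1 list had 6 of 13 genes lower in PD1 over Control (Cxcr6, Tmem176a, Tmem176b, Cd200r1, Il7r and Inpp4b, median -0.86), and 1 of 11 lower in CD40+PD1 over CD40 (median -0.15). The type I interferon list had a median of -0.62 in PD1 over Control and 1.14 in CD40+PD1 over CD40, where 7 of 12 genes were higher. That last value was 0.25 without the members with a doublet score of at least 0.25, 0.24 without cells that carried markers of other types and 0.040 without cells that carried ILC1 markers.

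Some differences were shared with other cells of the same libraries. Klrg1 in dividing NK cells averaged 556 CPM in CD40+PD1, 571 in CD40, 111 in PD1 and 54.5 in Control, close to the non-dividing levels, whereas in CD8 T cells it averaged 70.6 CPM in CD40+PD1, 65.4 in CD40, 44.1 in PD1 and 71.5 in Control. Gpx8 averaged 83.9 CPM in CD40+PD1, 97.5 in CD40, 7.21 in PD1 and 2.18 in Control in dividing NK cells, and at most 0.592 CPM in CD8 T cells. Gzmk was higher with the CD40 antibody in CD8 T cells too, at 546 CPM in CD40+PD1, 371 in CD40, 129 in PD1 and 55.5 in Control. Tcf7 in CD8 T cells averaged 77.0 CPM in CD40+PD1, 88.5 in CD40, 153 in PD1 and 272 in Control. The late maturation list had medians of 1.23 and 0.53 in dividing NK cells, 0.18 and 0.40 in CD8 T cells and -0.0088 and -0.050 in phagocytes, for CD40 over Control and CD40+PD1 over PD1. The type I interferon list had -0.23 and -0.10 in CD8 T cells and -0.18 and -0.19 in phagocytes for the same comparisons. With 1 library per group, none of these differences between cell types was tested.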

How the data were processed

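The 4 libraries were 5′ single-cell RNA libraries. The authors deposited whole UMI counts for each barcode and gene, not normalized, made with Cell Ranger 7.0.0 on GRCm38, per the submitters' processing notes. For the annotation release, the cell calling and any counting of intronic reads, nothing was given in the sources used here. The tables held 36694 barcodes, 32285 genes and 0 columns of other samples. Cells were kept at 300 genes or more and at most 10% mitochondrial UMIs. No cells were removed as doublets. Doublets were scored with Scrublet in scanpy 1.11.5.

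Members' counts were summed by library and divided by their total (CPM). Ratios were taken for genes with at least 30 UMIs in the higher library, with a count of 0 set to 3. Intervals of single levels, shares and ratios were exact (Poisson, Clopper-Pearson, conditional binomial). Those beside list medians are medians of the bounds of the list's genes. Named genes were members of the 24 gene lists, genes of at least 50 CPM with a log2 ratio of at least 1 of the same sign in both pairs and at least 50% of the other kept cells' level (no predicted, ribosomal or receptor segment genes), and the 10 genes highest over CD8 T cells. CD8 T cells had 2 or more UMIs of Cd3d and Cd3e, a UMI of Cd8a or Cd8b1, and none of Ncr1, Klrb1c, Klre1, Csf1r, Mki67 or Top2a. Phagocytes had 2 or more UMIs of Csf1r and none of Ncr1, Klrb1c, Klre1, Cd3d, Cd3e, Cd8a or Cd8b1. The members, lists and marker genes were chosen with earlier results of these data known. Mx1 is not analysed here, and Aldoa, with 2 identifiers in the files, was left out. The ratio step was tested on simulated data. Thinning drew 3000 UMIs per cell and left out 2 members of CD40+PD1, 3 of CD40, 26 of PD1 and 20 of Control. Gene coordinates are from GENCODE vM21 (GRCm38) and promoters from RefSeq (GRCm38.p6). Tables were handled with pandas 2.3.3 and numpy 2.4.6 under Python 3.11.15, intervals with scipy 1.17.1 and plots with matplotlib 3.10.9.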

Additional observations from a re-analysis of the deposited data

Results flagged for a closer look

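The CD40 antibody comparison ran in opposite directions with and without the PD1 antibody for 6 named genes, each past the 2-fold mark both ways. None of these differences was tested, since each group is 1 library. The log2 ratio of Ccl1 was 6.12 for CD40 over Control and -5.83 for CD40+PD1 over PD1, and 1 cell gave all of the CD40 library's UMIs. For the granzyme paralogs the pairs were -3.46 and 4.86 (Gzmd), -6.31 and 3.67 (Gzme) and -5.79 and 4.94 (Gzmf), again with 1 Control cell giving nearly all UMIs. Nr4a1, an immediate early receptor-signal gene, had 1.02 and -1.49, and Oasl2, an interferon-stimulated gene, had -3.12 and 1.32.

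The PD1 antibody comparison ran in opposite directions without and with the CD40 antibody for 2 lists and 8 genes, also untested. The late maturation list had medians of 0.34 for PD1 over Control and -0.31 for CD40+PD1 over CD40, and the type I interferon list -0.62 and 1.14. The ratios in the same order were 2.34 and -9.61 for Ccl1, 1.65 and -1.13 for Cx3cr1, -6.45 and 1.87 for Gzmd, -4.26 and 5.72 for Gzme and -5.62 and 5.11 for Gzmf. They were -1.50 and 1.49 for Ifi27l2a, -1.31 and 1.21 for Isg15 and -1.28 and 3.16 for Oasl2. In the CD40+PD1 library 1 cell gave 24.0% of the Isg15 UMIs. The interferon list median of 1.14 for CD40+PD1 over CD40 depended on few cells. It was 0.25 (-0.15 to 0.75) without the members with a doublet score of at least 0.25. Without cells with markers of other types it was 0.24 (-0.32 to 0.77).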

How the results depend on the processing

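No paired analysis was possible because each group is 1 library, and no replicate could be left out. The cause of the shifts below was not tested. In the order CD40 over Control, CD40+PD1 over PD1, PD1 over Control and CD40+PD1 over CD40, genes higher and lower by the mark numbered 255 and 828, 387 and 503, 218 and 286, and 450 and 140 with a 10 UMI minimum. With none they numbered 1676 and 1986, 1821 and 1662, 1323 and 2117, and 715 and 1888. Giving each cell equal weight put the late maturation median for CD40 over Control at 1.03. Leaving out cells with further division genes put the glycolysis median at 0.66 for CD40 over Control and 0.44 for CD40+PD1 over PD1. With dividing cells kept, 432 and 452 genes were higher in those pairs, the early medians were -0.92 and -0.51, the late median for CD40 over Control 1.00, the CD40+PD1 over PD1 glycolysis median 0.45, and the shares 4.22% in CD40+PD1, 4.15% in CD40, 5.40% in PD1 and 5.10% in Control. Without cells with markers of other types, 76 genes were higher in CD40+PD1 over PD1 and 61 in CD40+PD1 over CD40. In CD40+PD1 over PD1 the early median was then -0.14, the glycolysis median 0.50 and the interferon median -0.89, and the interferon median for CD40+PD1 over CD40 was 0.24 (0.25 without high doublet scores). Without cells with ILC1 markers, the late medians were 1.06 for CD40 over Control and -0.62 for CD40+PD1 over CD40, and 72 and 67 genes were higher in CD40+PD1 over PD1 and CD40+PD1 over CD40. There 47 were lower in PD1 over Control and 37 in CD40+PD1 over CD40, and the interferon medians were -0.94 for CD40+PD1 over PD1 and 0.040 for CD40+PD1 over CD40. Applying the rule to thinned cells gave shares of 3.13% in CD40+PD1 and 3.33% in CD40. Klrg1 shares were 56.0% in CD40+PD1 at 2000 UMIs, and unthinned 80.2% in CD40+PD1, 75.0% in CD40, 29.3% in PD1 and 16.5% in Control.

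Cells without Klrg1 alone, and cells with 10 or more list UMIs left out, were chosen after seeing the data. Without Klrg1, 71, 79 and 34 genes were higher in CD40 over Control, CD40+PD1 over PD1 and CD40+PD1 over CD40, and 494 and 47 lower in the last 2. The late medians were -0.45, -0.53, 0.11 for PD1 over Control and 0.049 for CD40+PD1 over CD40, the early medians 0.39 and 0.59, and the CD40 over Control glycolysis median 0.76. Of values past the 2-fold mark, those that reversed were Ly6c2 (-0.47), Gzma (-0.40) and Itgam (-0.35) in CD40 over Control, and Gzmk (-0.71), Gpx8 (-0.26), Cx3cr1 (-0.94) and Tcf7 (0.13) in CD40+PD1 over PD1. Of smaller values, Gzma (-0.96) and Itgam (-1.29) changed sign in CD40+PD1 over PD1, and Gzma (0.30) and Prf1 (0.57) in CD40+PD1 over CD40. The other alternatives kept the sign of all 18 genes named for the CD40 antibody, except that Itga1 has no value without cells with ILC1 markers. Under them, in CD40+PD1 over PD1, Cx3cr1 ranged from 0.18 to 1.38 and Ly6c2 from 0.31 to 1.51. Outside those 18, Isg15 in CD40+PD1 over PD1 (0.43) was -0.21 without high doublet scores, -0.80 without markers of other types and -0.84 without ILC1 markers. Gzma (-0.021) and Gzmb (0.12) in CD40+PD1 over CD40, both near 0, changed sign under 2 and 3 of them. With 188 to 457 members a library, genes under 30 UMIs were not compared.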
